A study of Mus musculus with 576 samples.

Results

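Haematopoietic stem cells (HSCs) with a high level of a p27 marker were set against HSCs negative for it, both from the bone marrow of mice given lipopolysaccharide (LPS), a bacterial cell wall component. All cells had been sorted as CD150+CD48-cKit+Sca1+, a phenotype enriched for long-term HSCs, and each cell gave 1 library. The members were the cells labelled p27 high or p27 negative and LPS-treated that held at least 50000 gene reads and at least 1000 detected genes. These limits kept 93 of 96 p27 high and 92 of 96 p27 negative cells, so 185 of the 576 cells of the series are described here. The p27 low cells after LPS and 3 classes of control marrow make up most of the rest. The labels do not give the strain, age or number of mice, the dose of LPS or how long after it the marrow was taken.

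The protein p27, encoded by Cdkn1b, binds cyclin-dependent kinases (CDKs) and holds cells out of the cycle. In the series title the marker stands for G0, or cell cycle rest. As known for this reporter, it is a fluorescent protein fused to a p27 variant that no longer inhibits CDKs, so its level follows the stability of the protein. Most long-term HSCs rest. Infection and its mimics reach them through Toll-like receptors, interferons and other cytokines, and can push them into cycle.

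Each class counts as 1 sample, since no label separates animals, and no difference was tested. A level is given as CPM, the counts per 1e+06 gene reads, of the reads summed over a class, and a log2 fold as p27 high over p27 negative after adding 1 CPM, which understates the fold of low genes. Intervals after a level are exact 95% Poisson intervals. They hold only the counting error, and several reads can stem from the same molecule. Folds were also computed in 3 parts of each class by cell number (1 to 32, 33 to 64 and 65 to 96). These parts do not stand in for replicates. The kept p27 high cells held 72577 to 1528164 gene reads, median 284633, and the p27 negative cells 80224 to 1878063, median 439918. At 50000 reads drawn from each cell, the median p27 high cell showed 3983 genes and the median p27 negative cell 4920. The p27 high cells also had fewer gene reads per read of the added spike-in RNA, with a median of 24.9 against 46.2 in p27 negative cells. On a scale of reads per spike-in read every log2 fold over all kept LPS cells would be lower by 0.805 and every control fold by 0.437, and folds within Xist or Y cells were not put on that scale. For LPS the median of all genes is -0.725 there and 0.08 on the CPM scale. On the spike-in scale the median of these lists, positive in CPM, was negative: interferon-stimulated genes (-0.67), interferon-gamma induced GTPases (-0.59), cytokine receptors (-0.3), glycolysis (-0.52), cholesterol (-0.23), lysosome and autophagy (-0.22) and FoxO genes (-0.04).

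Both classes held cells with female and cells with male transcripts. Xist, the RNA that coats the inactive X chromosome of females, had at least 5 reads without 5 reads of 4 Y-linked genes in 28 of 93 p27 high and 45 of 92 p27 negative cells (30.1% and 48.9%). The Y-linked genes had at least 5 reads without Xist in 50 p27 high and 41 p27 negative cells. Both kinds of transcript were found in 2 cells of each class, and neither in 13 p27 high and 4 p27 negative cells. Interferon-stimulated genes after LPS followed this split. The summed level of 40 interferon-stimulated genes was over 10000 CPM in 28 of 28 p27 high and 43 of 45 p27 negative Xist cells, and in 0 of 50 and 0 of 41 Y cells. It was over 10000 CPM in 0 of 43 control p27 high and 0 of 60 control p27 negative Xist cells. Sex, animal and handling of the animals cannot be told apart here, as no label names an animal. Values below are for all kept cells unless Xist or Y cells are named, and a pooled order need not hold within each kind.

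**Figure D1:**
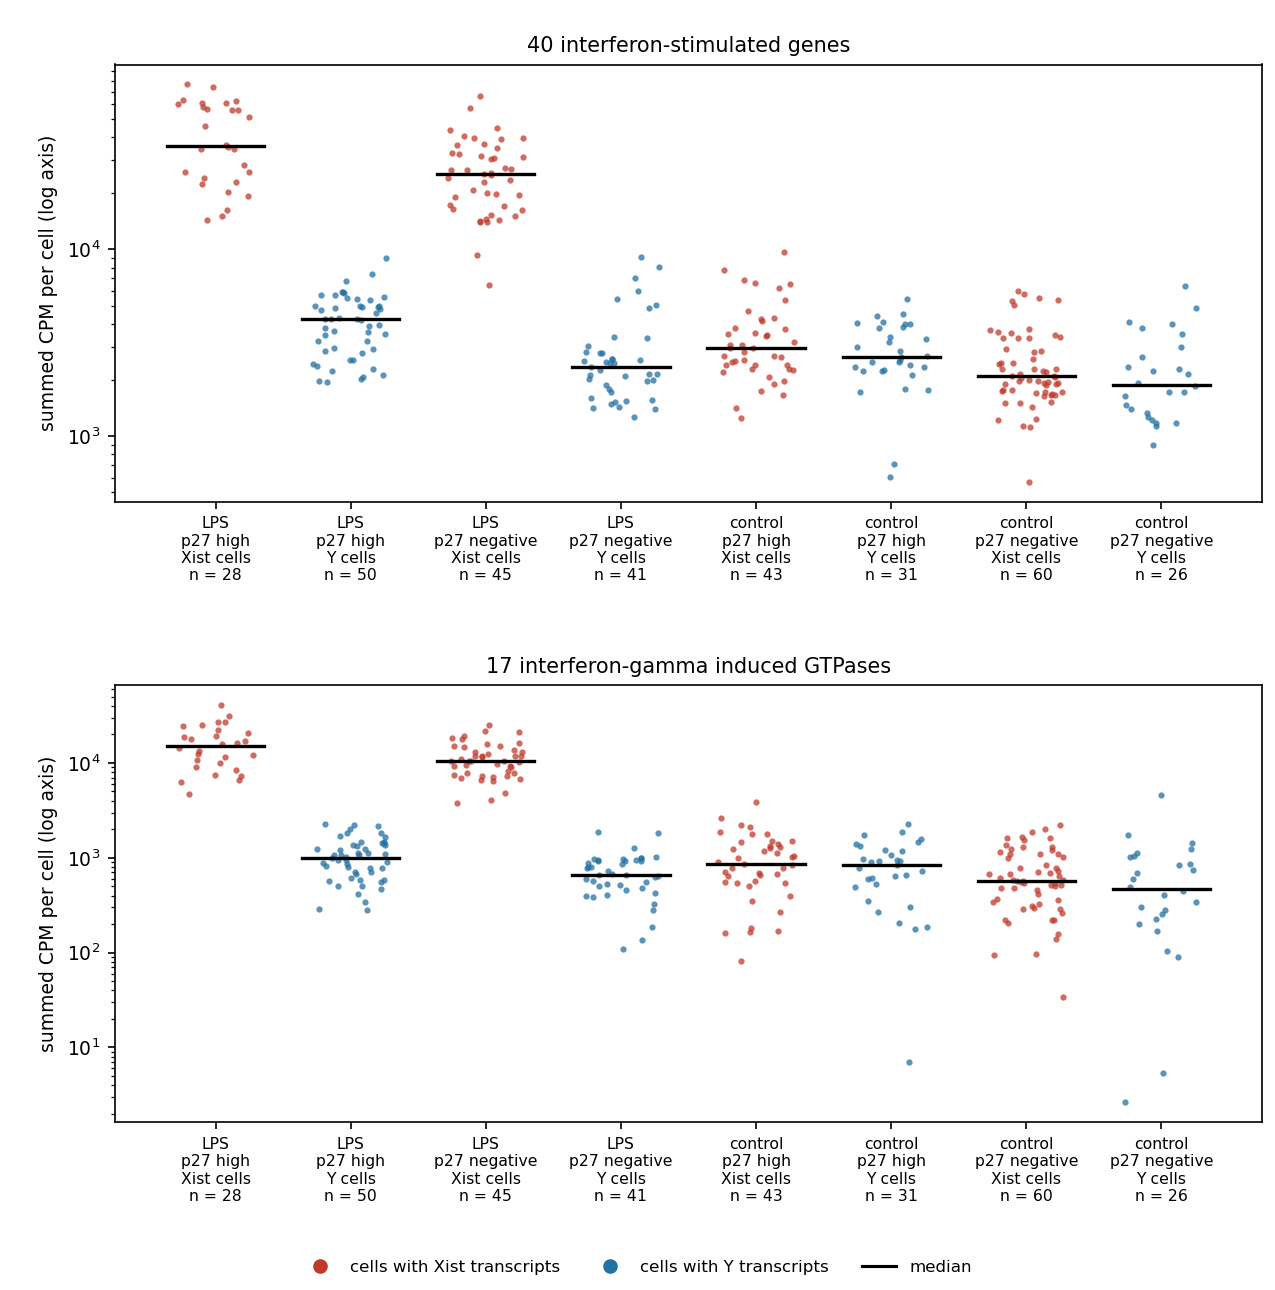
Summed CPM per cell (log axis) of 40 interferon-stimulated genes (top) and 17 interferon-gamma induced GTPases (bottom), with cells split by Xist or Y transcripts in LPS and control marrow. Each point is a cell and each bar a median; after LPS the Xist cells of both p27 classes lie above nearly all Y cells, and within each kind the p27 high median is the higher.

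Of 13746 genes with a mean of at least 1 CPM, 3261 differed by a log2 fold of at least 1 in either direction (23.7%). Of these 1990 were higher in p27 high cells (14.5% of genes tested) and 1271 lower (9.25%). On the spike-in scale only 13.4% of the genes past this limit were higher in p27 high cells, against 61% on the CPM scale. In Xist cells alone 38% of genes passed the limit and in Y cells alone 30.3%, with fewer cells behind each level.

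The mitotic programme separated the classes most. In p27 high cells all 30 listed G2/M genes were lower than in p27 negative cells, each by a log2 fold of at least 1, with a median of -4.71 over the list and of 0.08 over all genes tested. The median was -5.26 within Xist cells and -5.21 within Y cells. Genes were ranked by the smallest fold over the 3 parts, and the first 15 lower genes were led by Ccnb2, a B-type cyclin of mitotic entry, Ube2c, an E2 enzyme of the anaphase-promoting complex, Plk1, a kinase of mitotic progression, and Cenpf, a kinetochore protein. Their promoters share short motifs, and 3 windows are shown for that reason. Each runs from 250 bases before to 50 bases after the gene's start (RefSeq, GRCm38.p6, written on the gene's strand), with CCAAT boxes and cell cycle homology regions (CHR, TTTGAA) in capitals. The windows are chr9:70421505-70421804 on the minus strand, chr7:122159185-122159484 on the plus strand and chr1:189688037-189688336 on the minus strand.
Ccnb2: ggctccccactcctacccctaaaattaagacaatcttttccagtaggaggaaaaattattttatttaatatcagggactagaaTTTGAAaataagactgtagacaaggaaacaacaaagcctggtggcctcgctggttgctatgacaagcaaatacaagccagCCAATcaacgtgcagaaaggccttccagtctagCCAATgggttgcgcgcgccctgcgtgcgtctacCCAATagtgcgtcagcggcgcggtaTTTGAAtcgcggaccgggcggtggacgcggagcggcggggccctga
Plk1: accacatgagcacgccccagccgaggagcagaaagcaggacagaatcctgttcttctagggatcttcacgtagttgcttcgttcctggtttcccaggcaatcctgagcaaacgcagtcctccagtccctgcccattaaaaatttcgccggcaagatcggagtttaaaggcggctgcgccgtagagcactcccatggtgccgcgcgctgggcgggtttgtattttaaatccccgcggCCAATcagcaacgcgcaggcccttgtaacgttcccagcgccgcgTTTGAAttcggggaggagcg
Cenpf: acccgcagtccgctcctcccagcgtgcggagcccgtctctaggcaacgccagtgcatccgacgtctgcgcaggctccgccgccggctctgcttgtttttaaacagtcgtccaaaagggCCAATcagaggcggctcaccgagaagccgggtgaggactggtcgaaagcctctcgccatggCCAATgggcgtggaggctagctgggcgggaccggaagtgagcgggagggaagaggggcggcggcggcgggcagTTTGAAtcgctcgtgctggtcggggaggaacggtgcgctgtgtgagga
Both strands were searched. The window of Ccnb2 holds 3 CCAAT and 2 TTTGAA matches, that of Plk1 1 of each, and that of Cenpf 2 CCAAT and 1 TTTGAA. Of the 15 genes, 12 had a RefSeq window, and 10 of these 12 held CCAAT (83.3%) and 10 held TTTGAA (83.3%). Among 27025 genes with a window the shares were 37.9% and 18.1%. Of the first 15 higher genes, 14 had a window, 4 of these with CCAAT (28.6%) and 6 with TTTGAA (42.9%). A match is a description of the letters and not a shown binding site.

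Ccnb2 (ENSMUSG00000032218, chr9:70407692-70421547 in mm10) had 0, 1.669 and 21.52 CPM in the lowest, median and highest p27 high cell, against 0, 131.8 and 3344 CPM in p27 negative cells. In sums it stood at 2.223 (1.75 to 2.79) CPM in p27 high and 406.9 (401 to 413) CPM in p27 negative cells, a log2 fold of -6.98 that ran from -7.15 to -6.62 over the parts. The highest p27 high cell lay far below the median p27 negative cell. Plk1 had 1.021 CPM in p27 high against 186.1 CPM in p27 negative cells, Ube2c 1.502 against 268 CPM, and Cenpf 0.6608 against 109.1 CPM. Ccna2, the cyclin of S phase and G2, had 9.1 CPM in p27 high cells, 39.3% of it from 1 cell, against 501.5 CPM in p27 negative cells. These genes were lower in p27 high cells of control marrow too, at log2 folds of -3.64 for Plk1 and between -6.46 and -5.77 for the others.

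Genes of DNA replication were lower with a smaller fold. Of 30 S-phase genes, 26 were lower in p27 high cells and 9 of them by a log2 fold of at least 1, with a median of -0.74. The median was -1.56 in Xist cells, where 25 genes passed the limit, and -0.44 in Y cells, where 5 did. Rrm2, a subunit of ribonucleotide reductase, had 62.08 CPM in p27 high and 264.6 CPM in p27 negative cells, and Tyms, thymidylate synthase, 84.58 against 304.2 CPM. All 12 replication histone genes that were tested were lower in p27 high cells, 10 of them past the limit, with a median of -2.77. Hist1h1b, a linker histone, had 5.556 CPM in p27 high and 224.9 CPM in p27 negative cells.

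Counted per cell, the G2/M genes left few p27 high cells near the p27 negative level. At 50000 reads drawn per cell, p27 high cells showed a read of 0 to 15 of the 30 genes, with a median of 3, and p27 negative cells of 1 to 30, with a median of 20. At least 15 genes were seen in 1 p27 high and 78 p27 negative cells. At least 5 genes were seen in 33 of 93 p27 high cells, 35.5% (95% Clopper-Pearson interval 25.8% to 46.1%), and in 88 of 92 p27 negative cells, 95.7% (89.2% to 98.8%). These intervals cover the drawing of cells only, and cells are not replicates of a class. The p27 high share was 31%, 12.5% and 62.5% in the 3 parts, and 24 p27 high cells had 4 or 5 genes, next to the limit. Without drawing equal depths the shares were 96.8% and 98.9%, so this share depends on depth, and the levels above do not rest on it. The summed G2/M level was over 1000 CPM in 4 p27 high and 85 p27 negative cells.

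**Figure D2:**
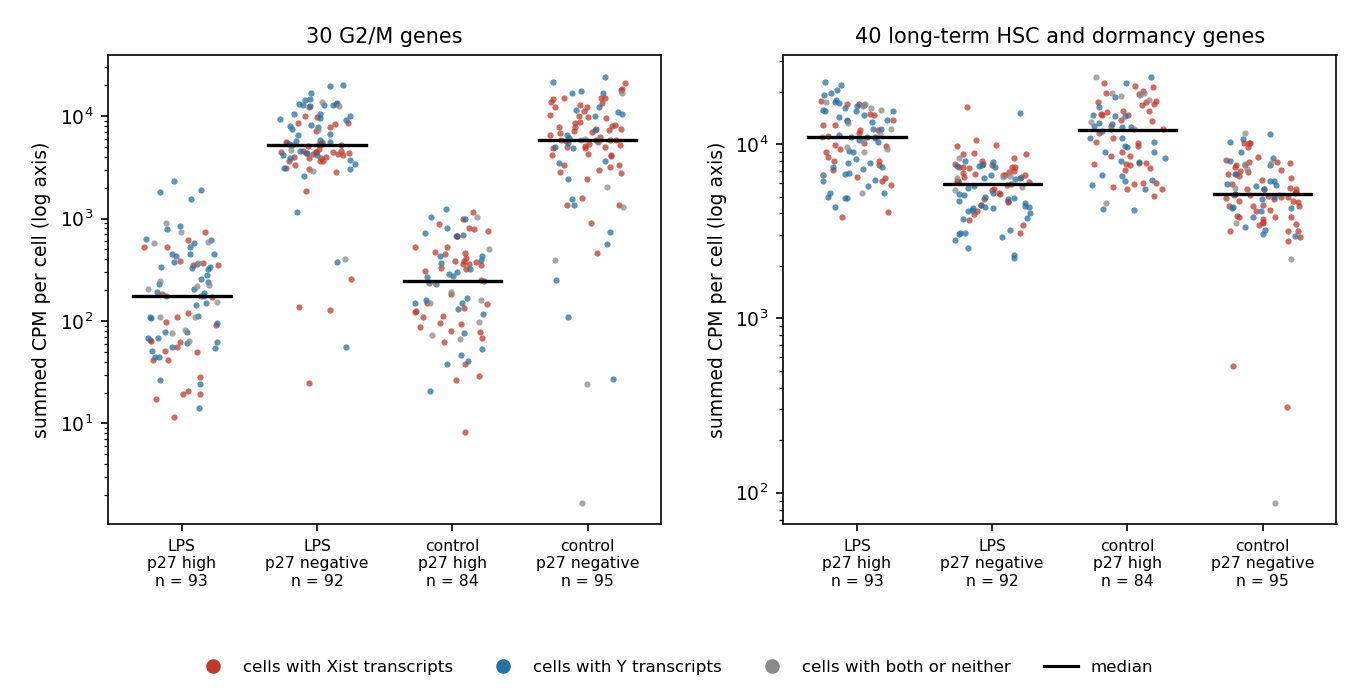
Summed CPM per cell (log axis) of 30 G2/M genes (left) and 40 long-term HSC and dormancy genes (right) in p27 high and p27 negative cells after LPS and in control marrow. Each point is a cell, coloured by Xist or Y transcripts, and bars are medians; the G2/M medians after LPS are 176.4 CPM in p27 high and 5227 CPM in p27 negative cells, and the ranges overlap through 7 p27 negative cells under 1000 CPM and the highest p27 high cells.

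The regulators of G1 differed less. Of 23 tested cyclins, CDKs and inhibitors, 16 were lower in p27 high cells, 7 of them past the limit, and 7 were higher, 2 past it. Cdkn1b had 107.7 (104 to 111) CPM in p27 high and 74.89 (72.5 to 77.4) CPM in p27 negative cells, a log2 fold of 0.52 after LPS against -0.13 in control marrow and -0.29 on the spike-in scale. Its fold was 0.83 in Xist and 0.47 in Y cells. Reads of the marker's own transcript that fall on shared p27 sequence cannot be told apart from those of Cdkn1b. Cdk6, a kinase of G1 progression, was lower in p27 high cells in both kinds, with 381.2 against 796.4 CPM in Xist cells and 533.8 against 844.5 CPM in Y cells. Among D-type cyclins, Ccnd3 had a log2 fold of -0.56 and Ccnd2 of 0.38. Ccnd1 had 44.57 CPM in p27 high against 8.793 CPM in p27 negative cells, but in Xist cells the order was turned, at 0.5249 against 3.683 CPM. E2f2, a transcription factor of the G1 to S transition, had 0.2102 (0.0845 to 0.433) CPM in p27 high and 20.14 (18.9 to 21.4) CPM in p27 negative cells. Cdkn1c, the inhibitor p57 and a gene of HSC quiescence, had 22.05 against 10.55 CPM, but its fold ran from -0.6 to 1.93 over the parts. Cdkn2c, the CDK inhibitor p18, was lower in p27 high cells, with 8.89 against 31.31 CPM.

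Genes of long-term HSCs and dormancy tended the other way. Of 39 tested, 32 were higher in p27 high cells, against 55% of all genes tested that were higher by any size. By at least 1, 17 were higher, against 14.5% of all genes tested. The other 7 were lower, 2 by at least 1, and the median was 0.91. On the spike-in scale 20 of 39 were higher and the median was 0.1. Within Y cells 30 of 38 were higher, with a median of 0.69, and within Xist cells 21 of 34, with a median of 0.2. By at least 1, 14 were higher and 2 lower in Y cells, and 9 higher and 7 lower in Xist cells. The summed level over the list ran from 3796 to 22840 CPM in p27 high cells, median 10980 CPM, and from 2230 to 16420 CPM in p27 negative cells, median 5871 CPM, so the classes overlapped. The classes of control marrow summed to 11370 CPM in p27 high and 5131 CPM in p27 negative cells. Genes of committed progenitors were mostly higher in p27 high cells after LPS too. Of 13 tested, 10 were higher, 6 by at least 1, and 3 lower, 1 by at least 1. Their median was 0.7, against 0.01 in control marrow. It was -0.12 in Xist cells, 0.33 in Y cells and -0.11 on the spike-in scale.

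Sult1a1 (ENSMUSG00000030711, chr7:126672865-126676432), a cytosolic sulfotransferase, ranked first among the higher genes. It had 0, 134.9 and 4031 CPM in the lowest, median and highest p27 high cell, against 0, 0 and 431.4 CPM in p27 negative cells. Its summed level was 314.5 (309 to 321) CPM in p27 high and 18.42 (17.2 to 19.7) CPM in p27 negative cells, a log2 fold of 4.02. The fold was 3.25 in Xist cells and 3.77 in Y cells, and 4.91 in control marrow.

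Other HSC genes depended on the kind of cell. Procr, the endothelial protein C receptor, which marks long-term HSCs, had 136.5 CPM in p27 high against 27.9 CPM in p27 negative Y cells, but 11.2 against 10.64 CPM in Xist cells. Txnip, a thioredoxin-binding protein, had 1370 against 574.3 CPM in Y cells and 405 against 316.6 CPM in Xist cells. Robo4, a guidance receptor of HSC homing, was higher in p27 high cells in both, at log2 folds of 2.13 in Y and 1.9 in Xist cells. Ly6a (ENSMUSG00000075602, chr15:74994877-74998031), which encodes Sca1 of the sorting gate and is known as induced by interferon, was higher in p27 high cells in both too. It had 377, 2863 and 7517 CPM in the lowest, median and highest p27 high Xist cell, against 3.316, 595.9 and 5927 CPM in p27 negative Xist cells. In Y cells it had 0, 290.2 and 2904 CPM in p27 high, against 1.102, 49.86 and 454.8 CPM in p27 negative cells. The ranges overlap in both kinds, while the medians differ several-fold in each.

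The other genes of the gate were checked as well. Kit, the stem cell factor receptor, had 308.1 CPM in p27 high and 213.4 CPM in p27 negative cells, an order that turns on the spike-in scale (-0.28). Within Xist cells it had 57.21 against 80.96 CPM, and within Y cells 448.8 against 378.7 CPM, and Xist cells, where it was low, were the smaller share of the p27 high class. Slamf1, the gene of CD150, had 61.21 CPM in p27 high and 68.91 CPM in p27 negative cells. Cd48 was low in both, with 14.42 against 3.958 CPM, and its order was turned in Xist cells, with 0.175 against 3.157 CPM. Cd34, which marks more mature progenitors, had 344.4 CPM in p27 high and 212.1 CPM in p27 negative cells, and this order was turned in Xist cells (80.05 against 111 CPM) and on the spike-in scale (log2 fold -0.11). Flt3, another progenitor marker, had 35.95 against 26.46 CPM, also turned in Xist cells (1.137 against 4.285 CPM) and on the spike-in scale (-0.38). The 10 B cell genes summed to 45.47 CPM in p27 high and 31.29 CPM in p27 negative cells, and the 12 T and NK cell genes to 71.54 against 138.5 CPM. The median cell had 4.308 CPM of the T and NK list in the p27 high and 80.37 CPM in the p27 negative class, and 7 of its genes had no read in p27 high and 5 none in p27 negative cells.

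Most tested genes of platelets stood lower in p27 high than in p27 negative cells, while the summed list differed little in the median cell. Of 17 tested megakaryocyte and platelet genes, 13 were lower, 9 of them by at least 1, and 4 higher, 3 of them by at least 1, with a median of -1.11. The median was -1.07 in Xist and -1 in Y cells. Summed over the list, the median p27 high cell had 1551 CPM and the median p27 negative cell 1707 CPM. These medians were 1684 against 1608 CPM in Y cells and 1266 against 1762 CPM in Xist cells. Pf4, platelet factor 4, had 67.64 (64.9 to 70.5) CPM in p27 high and 471.4 (465 to 477) CPM in p27 negative cells, and Gp1bb, a subunit of the von Willebrand factor receptor, 3.364 against 55.94 CPM. The single p27 negative cell with the most Pf4 held 19.9% of its reads, and 73.2% of the Gp1bb reads of p27 high cells came from 1 cell. Itgb3, the beta subunit of the platelet fibrinogen receptor, had a log2 fold of -1.54 after LPS and of -0.26 in control marrow. Gata1, a transcription factor of megakaryocytes and red cells, had 8.95 CPM in p27 high and 91.15 CPM in p27 negative cells. Car2, a carbonic anhydrase abundant in early erythroid cells, had 2202 against 4131 CPM. The erythroid list that holds both had 6 of 9 tested genes higher in p27 high cells, 1 by at least 1, and 3 lower, 2 by at least 1. Its median was 0.42 pooled, -0.51 in Xist cells, -0.26 in Y cells and -0.38 on the spike-in scale, and ran from -1.11 to 0.36 over the parts.

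The interferon response gave a different picture pooled and split. Over all kept cells 28 of 40 interferon-stimulated genes were higher in p27 high cells, only 2 of them by at least 1, and the median was 0.13. In Xist cells 38 of 40 were higher, 10 of them by at least 1, with a median of 0.67, and in Y cells 30 of 39, 12 of them by at least 1, with a median of 0.58. At that limit 15.5% of all genes tested were higher in p27 high Xist cells and 16.5% in p27 high Y cells, and the medians of all genes were -0.135 and 0.044. The summed level in Xist cells ran from 14390 to 76590 CPM in p27 high cells, median 35920 CPM, and from 6477 to 66440 CPM in p27 negative cells, median 25430 CPM. In Y cells it ran from 1948 to 9034 CPM in p27 high cells, median 4222 CPM, and from 1267 to 9139 CPM in p27 negative cells, median 2362 CPM. In the control classes as a whole the median was 2915 CPM in p27 high and 2062 CPM in p27 negative cells. Pooled over kinds, the median p27 high cell had 5217 CPM and the median p27 negative cell 9228 CPM, the opposite order to that within each kind.

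The interferon-gamma induced GTPases, which act against pathogens inside cells, showed the same. The median log2 fold of 17 was 0.21 pooled, 0.9 in Xist cells with 17 of 17 higher in p27 high cells, and 0.51 in Y cells with 13 of 15 higher. The promoters of Ifit3 from the first list, of Gbp2 from the second and of Ifi211, a ranked gene of neither, are shown for their matches to the interferon-stimulated response element (ISRE-like, TTTC, any 2 bases and TTTC, on either strand), in capitals. They are chr19:34583279-34583578 and chr3:142620413-142620712 on the plus strand and chr1:173912997-173913296 on the minus strand.
Ifit3: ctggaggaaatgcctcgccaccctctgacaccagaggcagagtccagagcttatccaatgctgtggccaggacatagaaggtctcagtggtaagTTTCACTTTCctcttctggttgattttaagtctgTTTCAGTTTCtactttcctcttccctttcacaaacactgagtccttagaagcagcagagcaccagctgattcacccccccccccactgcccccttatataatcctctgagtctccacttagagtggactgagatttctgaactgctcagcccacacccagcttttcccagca
Gbp2: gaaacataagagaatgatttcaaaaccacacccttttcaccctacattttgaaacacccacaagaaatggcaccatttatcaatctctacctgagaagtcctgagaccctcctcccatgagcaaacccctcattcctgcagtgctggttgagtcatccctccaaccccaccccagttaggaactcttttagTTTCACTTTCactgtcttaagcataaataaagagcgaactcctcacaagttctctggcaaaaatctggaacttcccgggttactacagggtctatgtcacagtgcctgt
Ifi211: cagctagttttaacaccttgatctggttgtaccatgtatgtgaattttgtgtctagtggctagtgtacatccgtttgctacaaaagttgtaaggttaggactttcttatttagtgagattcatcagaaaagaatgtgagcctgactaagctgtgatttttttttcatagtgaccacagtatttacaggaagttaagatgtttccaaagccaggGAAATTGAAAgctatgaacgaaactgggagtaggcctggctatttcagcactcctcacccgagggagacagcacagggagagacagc
The window of Ifit3 holds 2 matches, and those of Gbp2 and Ifi211 1 each. Of the listed interferon-stimulated genes 29 had a window, 15 of them with a match (51.7%), and of the GTPases 10, 9 of them with a match (90%), against 3.49% of all genes with a window.

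Ifit3 (ENSMUSG00000074896, chr19:34583531-34588731), an antiviral protein, had 0, 375.1 and 3057 CPM in the lowest, median and highest p27 high Xist cell, against 0, 81.8 and 867.5 CPM in p27 negative Xist cells. No Y cell of either class was above 21.31 CPM. In sums of Xist cells it had 823.7 CPM in p27 high and 120.7 CPM in p27 negative cells, a log2 fold of 2.76. Gbp2, a guanylate-binding protein, had 2504 against 818.1 CPM in Xist cells and 88.18 against 75.08 CPM in Y cells, with 24.9% of its p27 high reads from 1 cell. Gbp6, of the same family, had a log2 fold of 2.04 in Xist and 2 in Y cells. Zbp1, a sensor of Z-form nucleic acid, had 487.4 against 147.6 CPM in Xist cells and 13.04 against 5.461 CPM in Y cells. Usp18, which restrains interferon signalling, did not follow the list, with 384.9 CPM in p27 high and 629.4 CPM in p27 negative cells, and log2 folds of -0.05 in Xist and -0.58 in Y cells.

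Several of the 15 highest ranked genes had their highest levels in Xist cells. Slfn5, a Schlafen protein, had 87.37 CPM in p27 high and 15.01 CPM in p27 negative cells, with log2 folds of 3.09 in Xist and 2.66 in Y cells. Ifi211, of the interferon-inducible p200 family, had 68.85 CPM in p27 high against 2.067 CPM in p27 negative Xist cells, and was under 1 CPM in both classes of Y cells. Ms4a4c, a tetraspan membrane protein, had 129.8 against 1.917 CPM in Xist cells, with 38.5% of the p27 high reads from 1 cell. Ccl9, a chemokine, had 342.2 against 13.49 CPM in Xist cells and 9 against 5.953 CPM in Y cells.

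**Figure D3:**
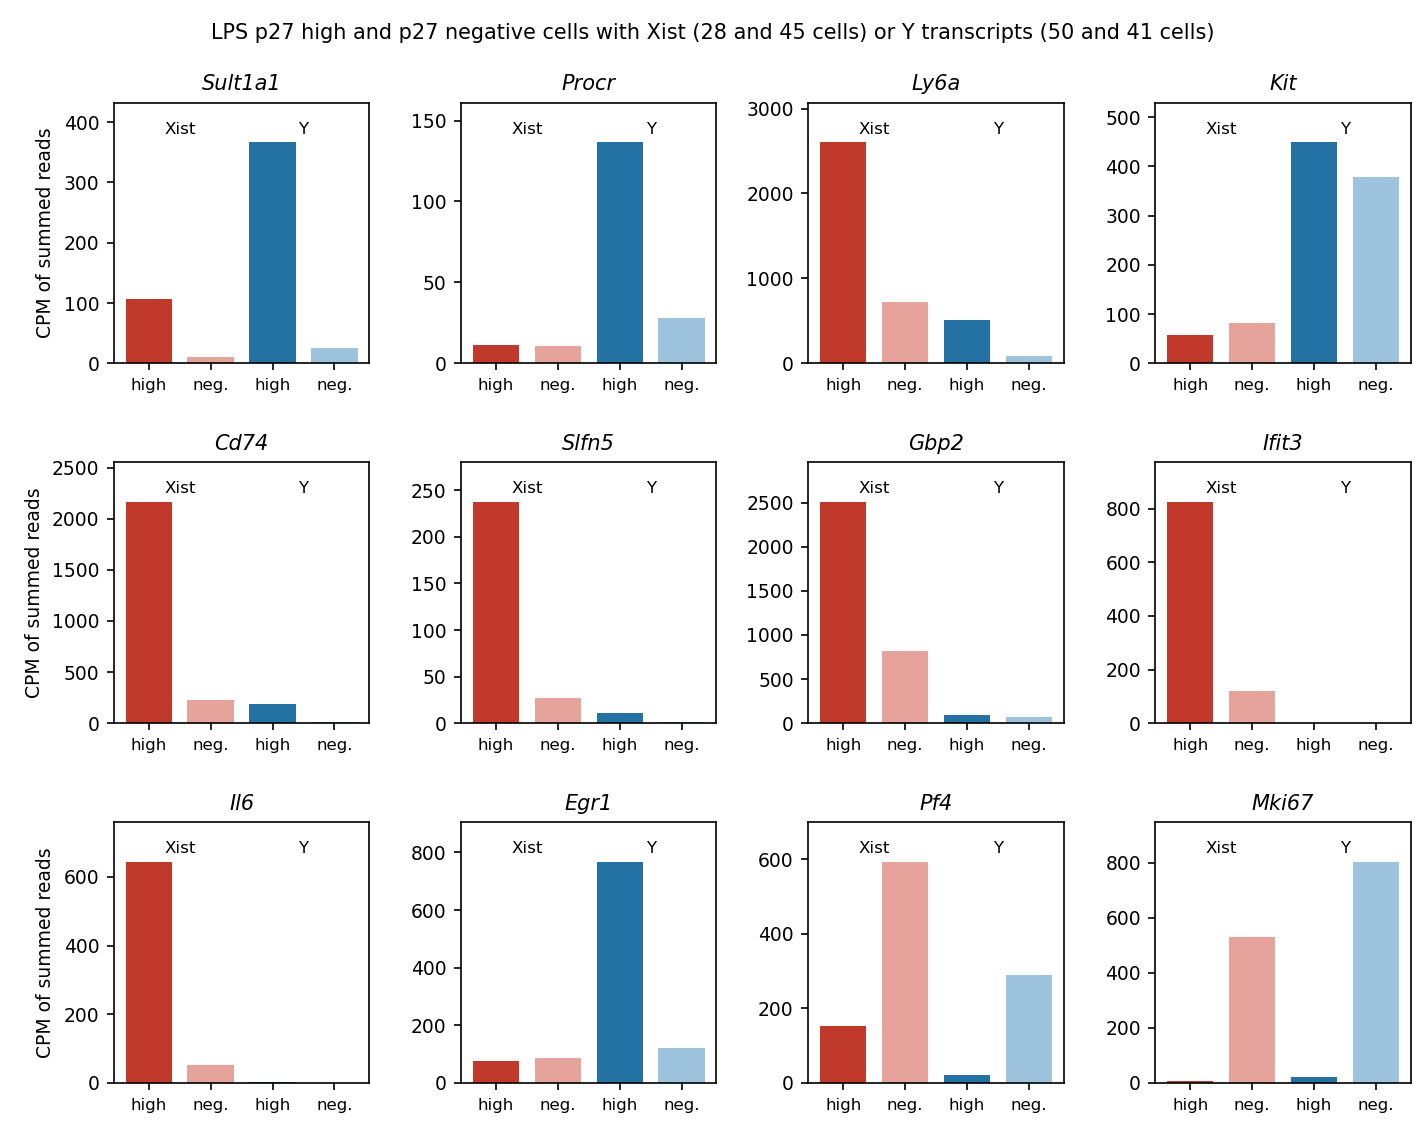
CPM of summed reads of 12 genes in p27 high (dark bars) and p27 negative (light bars, neg.) cells after LPS, separately in Xist cells (red) and Y cells (blue), with linear axes that start at 0. Bars show sums over cells and carry no error; Ly6a, Cd74 and Slfn5 are higher in p27 high cells of both kinds, Ifit3 and Il6 are near 0 in Y cells, and Egr1 and Procr are clearly higher in p27 high Y cells but near equal in Xist cells.

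Antigen presentation divided by class of molecule. Among 10 MHC class II genes, p27 high cells had the higher level of 9, by at least 1 for 7, with a median of 1.72. The median was 1.66 in Xist and 1.9 in Y cells, and 1.16 in control marrow. Cd74 (ENSMUSG00000024610), the invariant chain that loads class II molecules, had 0, 77.54 and 9699 CPM in the lowest, median and highest p27 high cell, against 0, 5.172 and 3253 CPM in p27 negative cells. Its sums were 857.6 (848 to 868) CPM in p27 high and 135.3 (132 to 139) CPM in p27 negative cells, with log2 folds of 3.22 in Xist and 3.56 in Y cells. H2-Ab1 and H2-Aa, the chains of one class II dimer, had 149 and 115.6 CPM in p27 high cells, against 35.15 and 23.46 CPM in p27 negative cells. H2-Eb1, a chain of another, had 29.85 against 1.979 CPM. Of 18 MHC class I and antigen processing genes 0 passed the limit in either direction, pooled or within Xist or Y cells. The median was -0.05 pooled, 0.27 in Xist cells with 13 of 18 higher, and 0.01 in Y cells with 11 of 18 higher.

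Reads of Il6 came mostly from Xist cells. Il6, the gene of interleukin 6, had 0, 287.3 and 3149 CPM in the lowest, median and highest p27 high Xist cell, against 0, 0.974 and 1109 CPM in p27 negative Xist cells. In sums it had 643 CPM in p27 high and 52.81 CPM in p27 negative Xist cells, against 2.279 CPM in p27 high and 0.738 CPM in p27 negative Y cells. No read of Il6 was found in control p27 high or p27 negative cells. The list of 22 tested cytokines and chemokines was split, with 11 higher in p27 high cells, 4 by at least 1, and 11 lower, 7 by at least 1. In Xist cells 11 of 21 were higher, with a median of 0.31, and in Y cells 13 of 16, with a median of 0.54. Cxcl1 and Lcn2 had high sums in p27 high cells through 1 cell each, which held 85.1% and 73.9% of the reads. Cybb, a subunit of the phagocyte NADPH oxidase, had 25.05 CPM in p27 high against 0.8364 CPM in p27 negative cells, with 46% from 1 cell. All 8 tested neutrophil and monocyte genes were higher in p27 high cells, 5 by at least 1, against 14.5% of all genes tested. In Xist cells 7 of 9 were higher, 6 by at least 1, and 1 was lower by at least 1. In Y cells 3 of 4 were higher, 0 by at least 1, and in control marrow 4 of 8 were higher. Of the 19 listed, 6 had no read in p27 high and 5 none in p27 negative cells. That list summed to 944.5 CPM in p27 high and 464.9 CPM in p27 negative cells, with per-cell sums of 27.56 to 4541 CPM and 10.16 to 2466 CPM. Its part in the higher class II levels was not tested.

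Of 20 NF-kB pathway genes and targets, 12 were higher in p27 high cells, 4 by at least 1 (20%, against 14.5% of all genes tested). The other 8 were lower, 0 by at least 1, and the median was 0.17, or -0.64 on the spike-in scale. The median was 0.44 in Xist cells, with 14 of 20 higher, and 0.42 in Y cells, with 14 of 19 higher. Nfkbiz, an inducible nuclear regulator of NF-kB, had 139.5 CPM in p27 high and 48.59 CPM in p27 negative cells. Icam1, an adhesion molecule under NF-kB, had 857.8 against 243.8 CPM in Xist cells, but 38.91 against 42.26 CPM in Y cells. Of 19 tested LPS receptor and adaptor genes, 14 were higher, 4 by at least 1, and 5 lower, 1 by at least 1. So 26.3% passed the limit, near the 23.7% of all genes tested, and the median was 0.13, or -0.67 on the spike-in scale. In Xist cells 10 were higher and 9 lower, 3 each way by at least 1. In Y cells 13 were higher, 5 by at least 1, and 6 lower, 3 by at least 1. Lbp, the LPS-binding protein, had 125 CPM in p27 high and 31.44 CPM in p27 negative cells, and Tlr2, a receptor of bacterial lipopeptides, 77.25 against 35.05 CPM. Of 23 cytokine and interferon receptors 18 were higher in p27 high cells, 2 by at least 1, with a median of 0.5, and on the spike-in scale 5 of 23 were. The median was 0.13 in Xist and 0.23 in Y cells. Csf3r, the G-CSF receptor, was higher in both kinds, with 109.6 against 12.48 CPM in Xist and 145.5 against 46.2 CPM in Y cells. Ifngr1, Jak1 and Stat5a had log2 folds of 0.92, 0.85 and 0.82. Of 21 SOCS, STAT and JAK genes 0 passed the limit pooled, against 23.7% of all genes tested, and the median was 0.09. In Xist cells 2 were higher and 3 lower by at least 1, with a median of 0.54. In Y cells 5 were higher and 0 lower by at least 1, with a median of 0.28.

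Immediate early genes, which answer stimuli within minutes, were higher in p27 high cells in 19 of 22 cases, 13 by at least 1, with a median of 1.09. In Y cells 20 of 22 were higher, with a median of 1.12, and in Xist cells 13 of 22, with a median of 0.43. Egr1, a zinc finger factor also on the HSC list, had 766.4 CPM in p27 high against 121.8 CPM in p27 negative Y cells, but 77.95 against 86.94 CPM in Xist cells. Nr4a1, a nuclear receptor, was higher in p27 high cells in both, at log2 folds of 2.63 in Y and 2.79 in Xist cells. Dusp2, a phosphatase of MAP kinases, had 548.8 CPM in p27 high and 137.3 CPM in p27 negative cells.

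**Figure D4:**
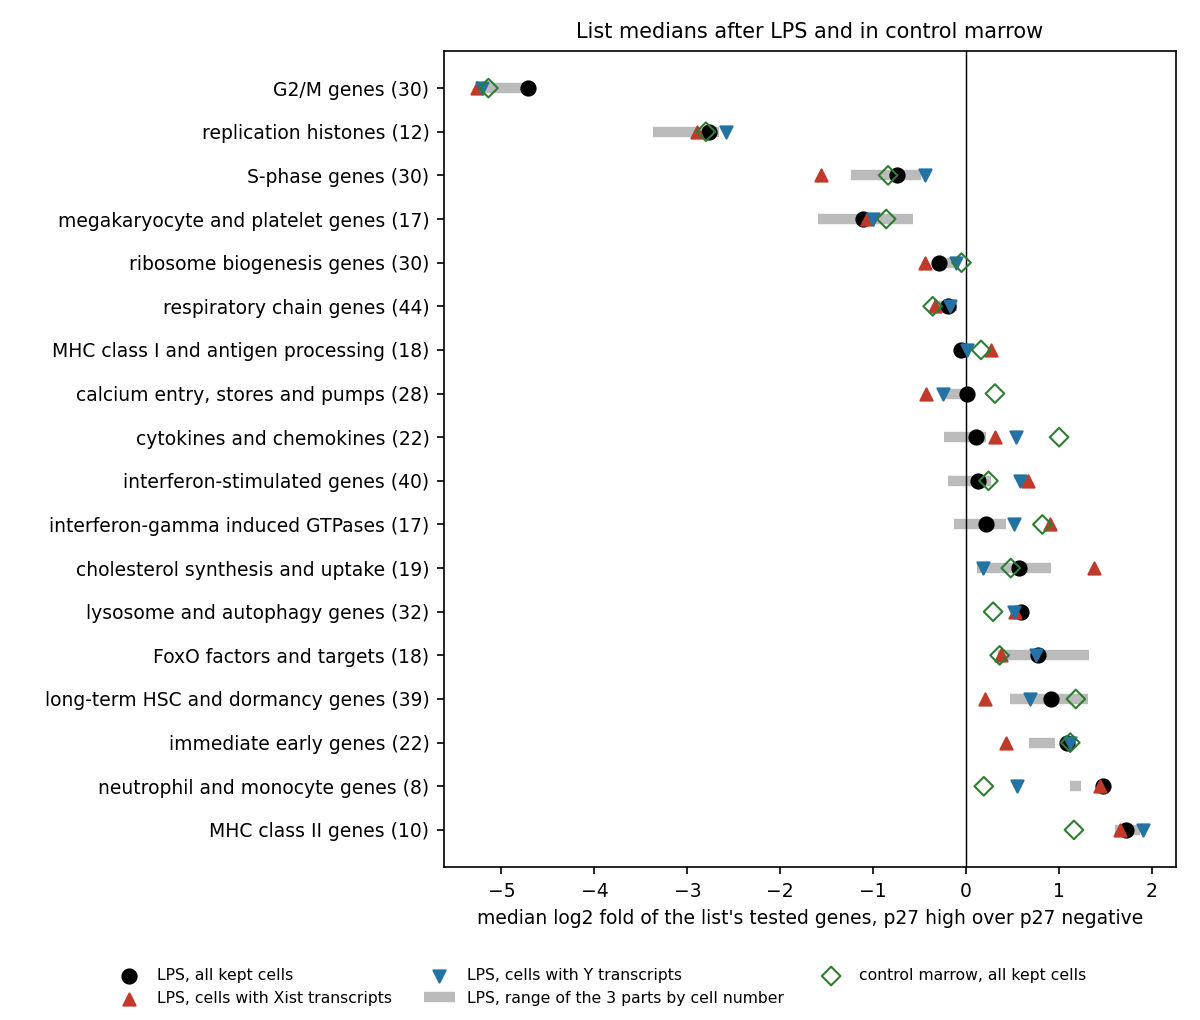
Median log2 fold of p27 high over p27 negative cells for 18 gene lists (tested genes in parentheses) after LPS in all kept cells, in Xist cells and in Y cells, and in control marrow; grey bars span the 3 parts by cell number. The G2/M list is lowest at -4.71 and the MHC class II list highest at 1.72, and the Xist and Y medians part most for cholesterol and S-phase genes.

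Pooled on the CPM scale, respiratory chain and ribosome biogenesis genes showed small and mostly even shifts. Of 44 nuclear respiratory chain genes 40 were lower in p27 high cells but 0 by as much as 1, with a median of -0.19. Their median was -0.33 in Xist cells, with 2 lower by at least 1, -0.17 in Y cells and -0.36 in control marrow. Atp5o, a subunit of ATP synthase, had 126.1 CPM in p27 high and 213.9 CPM in p27 negative cells. Of 30 ribosome biogenesis genes 26 were lower, 0 by at least 1, with a median of -0.29, or -1.1 on the spike-in scale. In Xist cells 28 were lower, 3 by at least 1, and 2 higher, 1 by at least 1, with a median of -0.44. In Y cells 20 were lower and 10 higher, with a median of -0.11. In control marrow 17 were lower and 13 higher, with a median of -0.05. Of 24 glycolysis genes, 17 were higher in p27 high cells, 5 by at least 1 (20.8%, against 14.5% of all genes tested). The other 7 were lower, 0 by at least 1, and the median was 0.28. Aldoa, an aldolase, had 0, 836.3 and 2543 CPM in the lowest, median and highest p27 high cell, against 0, 292.5 and 1205 CPM in p27 negative cells. Its log2 fold was 1.17 in Xist and 1.4 in Y cells. Pdk1, which keeps pyruvate from the mitochondria, had 84.13 CPM in p27 high and 19.07 CPM in p27 negative cells.

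On the CPM scale p27 high cells had more of most lysosome, autophagy and FoxO genes. Of 32 lysosome and autophagy genes 28 were higher, 7 by at least 1 (21.9%, against 14.5% of all genes tested), with a median of 0.59. On the spike-in scale 10 of 32 were higher. In Xist cells 20 were higher, 5 by at least 1, and 12 lower, 2 by at least 1, with a median of 0.53. In Y cells 27 were higher, 8 by at least 1, and 5 lower, 0 by at least 1, with a median of 0.52. Map1lc3b, a protein of the autophagosome, had 351.5 CPM in p27 high and 128.5 CPM in p27 negative cells. Ctsl and Ctss, lysosomal proteases, had 137.6 and 74.64 CPM in p27 high cells, against 36.72 and 7.161 CPM in p27 negative cells. Of 18 FoxO factors and targets 14 were higher, 8 by at least 1 (44.4%, against 14.5% of all genes tested), with a median of 0.77. Among them was Pik3ip1, an inhibitor of PI3 kinase, at 203.2 CPM in p27 high and 73.07 CPM in p27 negative cells. In Xist cells 13 of 18 FoxO genes were higher, with a median of 0.38, and in Y cells 13 of 16, with a median of 0.75. Of 19 cholesterol genes, 17 were higher in p27 high than in p27 negative Xist cells, 13 by at least 1, with a median of 1.38. In Y cells 10 of 19 were, with a median of 0.18. Msmo1, a sterol demethylase, had 282.7 against 25.93 CPM in Xist and 52.86 against 33.36 CPM in Y cells.

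Calcium genes, which the series title names, showed no common direction. Of 28 tested genes of calcium entry, stores and pumps, 15 were higher in p27 high cells, 4 by at least 1, and 13 lower, 3 by at least 1, with a median of 0.01. The median was -0.43 in Xist cells, -0.25 in Y cells and 0.31 in control marrow. Orai2, a subunit of a store-operated channel, had 17.39 CPM in p27 high and 7.201 CPM in p27 negative cells, and P2rx4, an ATP-gated channel, 51.51 against 23.03 CPM. Among 37 calcium-dependent signalling genes 20 were higher and 17 lower, with a median of 0.02. Prkca, a calcium-dependent protein kinase C, had 9.521 CPM in p27 high and 35.66 CPM in p27 negative cells, while Camk2d, a calmodulin-dependent kinase, had 62.05 against 22.18 CPM.

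The same contrast was made in control marrow, which shares no cell with the LPS classes and where 26.5% of 13799 genes tested passed the limit. In control cells numbered 1 to 32 the median of gene reads per spike-in read was 4.45 for the p27 high and 7.13 for the p27 negative class, against 18.7 and 20.2 in the other parts of the p27 high class and 33.8 and 36.4 in those of the p27 negative class. The part of this difference in the control folds was not tested. Of 12881 genes tested in both, 1162 passed the limit the same way, which is 42.4% of those past it after LPS and 37.9% of those past it in control. A further 234 passed it in opposite directions. Across genes, which are not independent, Pearson's r of the log2 folds was 0.475. A difference of at least 1 between the LPS and the control fold was found for 24.6% of these genes. Among the genes ranked first for this difference, Rnd1 had a log2 fold of 2.44 after LPS and -1.9 in control, where it was under 3 CPM in both classes. In LPS Xist cells it had 277.9 CPM in p27 high against 28.75 CPM in p27 negative cells. Ackr1, a chemokine-binding receptor, had 3.41 after LPS and -2.22 in control, but 82.1% of its reads in LPS p27 high cells came from 1 cell. Gpr65, a proton-sensing receptor, had -0.31 after LPS and 3.7 in control, with 23.34 against 29.25 CPM after LPS and 67.05 against 4.232 CPM in control marrow. Trib3, a pseudokinase of stress responses, had 0.02 after LPS and 3.56 in control. The difference between the treatments was not tested.

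**Figure D5:**
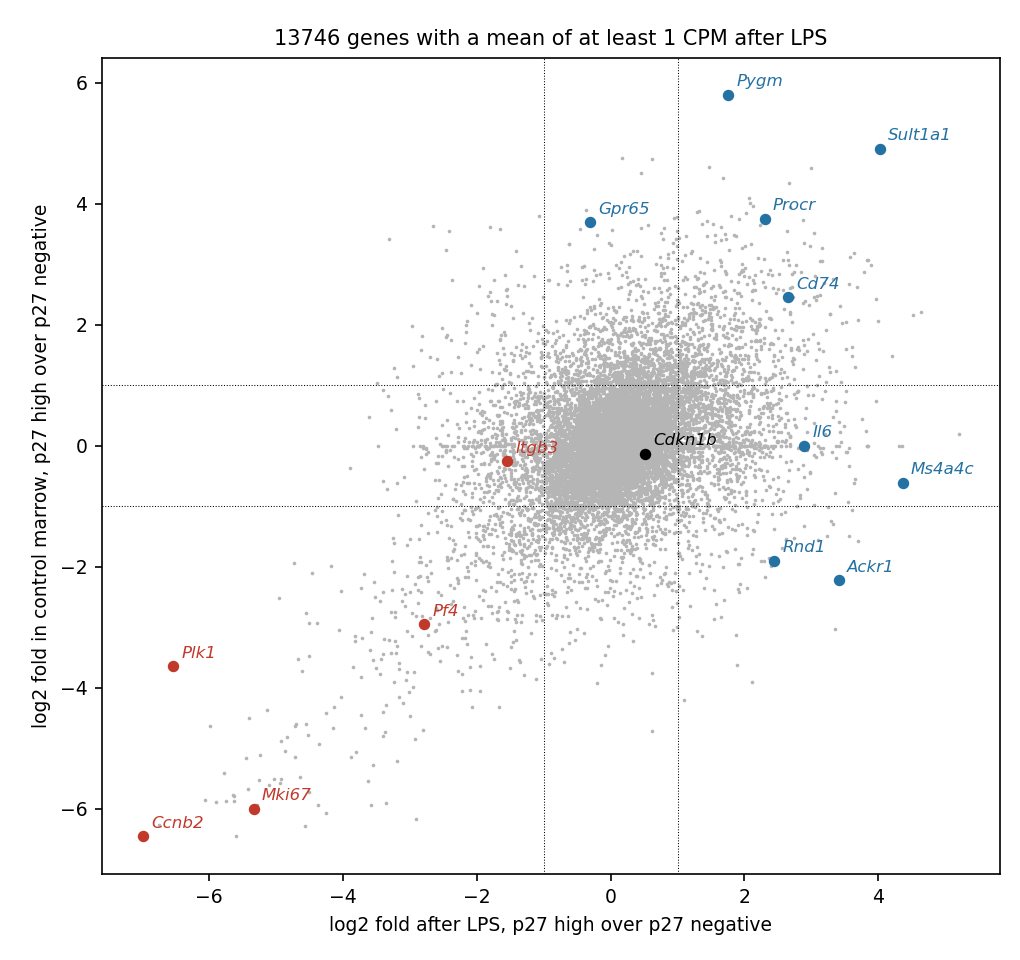
Log2 fold of p27 high over p27 negative cells after LPS (x axis) and in control marrow (y axis) for 13746 genes, with named genes in colour and dotted lines at 1 and -1. Mitotic genes lie at the lower left in both, Sult1a1, Procr and Cd74 at the upper right, and Il6, Ms4a4c and Rnd1 are high after LPS alone.

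The other highly ranked genes have varied roles. Ldhd, a mitochondrial D-lactate dehydrogenase, had 93.5 CPM in p27 high and 7.691 CPM in p27 negative cells, and was higher in p27 high cells in both kinds. Chrnb1, an acetylcholine receptor subunit, had 65.38 against 4.427 CPM, and Pbxip1, a partner of PBX factors, 46.91 against 3.488 CPM. Padi4, an arginine deiminase, had 100.7 against 11.34 CPM, with a log2 fold of 3.43 in Y and 0.86 in Xist cells. Parp3, of the ADP-ribose transferases, and Pde1b, a calmodulin-dependent phosphodiesterase, had log2 folds of 2.97 and 3.16. In p27 negative cells 79.7% of the Chrnb1 and 83.9% of the Pde1b reads came from 1 cell.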

How the data were processed

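Single HSCs were profiled by Smart-seq2 with Nextera XT libraries, per the labels' protocols. The authors deposited raw read counts per gene and cell. The submitters' processing notes name GSNAP, HTSeq 0.6.0 and mm10. For the annotation release and the strand setting, nothing was given in the sources used here. Each table held 46175 entries, of which 46078 were genes, 92 spike-in RNAs and 5 HTSeq summary entries. Symbols came from GENCODE M21 for 45143 genes. Of the reads of both LPS classes, 38.2% lay on genes, 1.11% on spike-ins and 7% on no feature, 5.09% were ambiguous and 48.7% were not aligned. Only gene reads entered totals, and all 576 cells had distinct counts.

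Cells with at least 50000 gene reads and 1000 genes were kept, no doublet caller was run, and reads were summed per class. With 1 sample per class no test was made. Genes with a mean of at least 1 CPM over both classes entered the counts. Shares of cells used 50000 reads drawn per cell, with Clopper-Pearson intervals. Exact intervals have a confidence level of 95%. The scripts were tested on simulated data.

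Ranking needed a level of 10 CPM or more in the higher class, with a read in at least 20% of its cells, and a direction shared by the sums, the per-cell means and all 3 parts. The order was set by the fold of the part where it was smallest, and the first 15 each way were taken, with the first 10 each way for the difference from control. Other named genes were members with large folds of the gene lists, or were fixed by name. The members and lists were chosen with earlier results of these data known, and the split by Xist and Y transcripts was added after seeing the data. Alternatives covered the scaling (edgeR 4.0.16 TMM factors in R 4.3.3, spike-ins), filters, added CPM, parts and thinning. Python 3.11.15, NumPy 2.4.6, pandas 2.3.3, SciPy 1.17.1 and Matplotlib 3.10.9 were used. A result that meets the limits for a closer look is not reported here.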

Additional observations from a re-analysis of the deposited data

Results flagged for a closer look

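For the 12 genes given here the p27 high over p27 negative log2 fold was past 1 in size after LPS and in control marrow with opposite signs, and each sign held in all 3 parts by cell number. The class with the higher level had at least 10 CPM and a read in at least 20% of its cells. The difference was not tested. The signs were not all shared by cells with Xist and with Y transcripts: the control fold of Zfp236 was -3.02 in Xist and 1.11 in Y cells, and that of Fbxl18 -2.53 in Xist and 1.42 in Y cells. Some folds were small within a kind, with 0.02 for Arnt in control Y cells, 0.12 for Osbpl3 in control Xist cells, -0.16 for Smg8 in LPS Xist cells, -0.04 for Zcchc2 in LPS Y cells and 0.16 for Erich1 in LPS Xist cells. Lower in p27 high cells after LPS and higher in control were Plekha3 (-1.46 after LPS and 2.1 in control), Arnt (-1.18 and 1.32), Smg8 (-1.22 and 1.54), Wdr37 (-1.15 and 1.21), Osbpl3 (-1.39 and 1.15), Bhlhe40 (-1.21 and 1.92) and Zcchc2 (-1.03 and 1.55). Higher in p27 high cells after LPS and lower in control were Lrrc57 (1.1 after LPS and -1.16 in control), Zfp236 (1.05 and -1.23), Erich1 (1.56 and -1.2), Tmem140 (1.01 and -1.22) and Fbxl18 (1.51 and -1.32). Arnt and Bhlhe40 encode transcription factors of the basic helix-loop-helix family. Plekha3 had a read in 11 of 93 p27 high and 31 of 92 p27 negative cells after LPS, and Arnt in 25 and 40. The median p27 high cell after LPS had 0 CPM of each of the 12 genes. After LPS the top p27 high cell held between 15% (Zcchc2) and 45.4% (Fbxl18) of a gene's reads in its class. The top p27 negative cell held between 10.3% (Smg8) and 50% (Fbxl18).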

How the results depend on the processing

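Of the 88 genes followed through the alternatives, 68 were past a log2 fold of 1, and 6 of these changed sign somewhere. Sign changes of smaller folds were not counted. The spike-in scale, lower by 0.805, could not turn a fold of at least 1, so this count does not bear on that scale. In Xist cells, chosen after seeing the data like the Y cells, Ccnd1 had -1.62, Cd48 -1.82 and Egr1 -0.16. In Y cells Cxcl1 had -0.06, Icam1 -0.12 and Ackr1 -0.61, and in cells 65 to 96 Icam1 had -0.19. The count of genes past 1 was 3261, and 5319 per spike-in read, 5209 in cells 1 to 32, 1675 with 5 CPM added, 1564 at a mean of at least 10 CPM and 4895 in Xist cells. Per spike-in read the medians were -5.51 for G2/M, -1.55 for S-phase, 0.1 for HSC, -0.67 for interferon-stimulated, -0.59 for GTPase, -1 for respiratory chain, -1.91 for platelet and -0.79 for calcium entry genes, by the construction of that scale. In Xist cells they were -5.26, -1.56, 0.2, 0.67, 0.9 and -0.33 for the first 6 lists and -0.43 for calcium entry. In Y cells they were -5.21 for G2/M, 0.58 for interferon-stimulated and -0.25 for calcium entry genes. The mean of Xist and Y folds gave -5.24 for G2/M, 0.67 for interferon-stimulated, 0.63 for GTPase, -0.3 for respiratory chain and -0.26 for calcium entry genes. The G2/M median was also -4.44 for the mean of cells, -5.3 without each gene's top cell, -4.98 and -5.2 in cells 1 to 32 and 33 to 64, -5.34 with 0.1 CPM and -3.94 with 5 CPM added. In cells 1 to 32 the S-phase median was -1.24 and that of calcium entry -0.22, which was also -0.22 without each gene's top cell. The platelet median was -0.57 in cells 33 to 64, and in cells 65 to 96 the interferon-stimulated and GTPase medians were -0.19 and -0.18. The p27 high share with G2/M genes was 80.3% at 200000 reads, 96.8% without thinning, 9.68% for at least 5 reads of a gene or at least 8 genes, 67.7% for at least 3 genes, 12.5% and 62.5% in cells 33 to 64 and 65 to 96, and 25% in Xist cells. The p27 negative share was 98.9% without thinning. Gene reads per spike-in read were 20.6 in cells 65 to 96 and 31.8 in Xist cells of the p27 high class, and 52.4 in cells 1 to 32 of the p27 negative class. The cause was not tested except where the construction shows it. No paired analysis was possible because the labels give cell numbers that tie no cell of a class to a cell of another, and no result comes from a test.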

Other observations

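Of 11 tested imprinted growth-restricting genes, 9 were higher in p27 high cells, 5 by at least 1, with a median log2 fold of 1 after LPS and 1.59 in control marrow. After LPS it was 0.8 in Xist cells, 0.86 in Y cells and 0.19 on the spike-in scale, and ran from 0.17 to 0.43 over the parts. Of 25 haematopoietic transcription factors, 17 were higher in p27 high cells, 3 by at least 1 (14.5% of all genes were), with a median of 0.35. In Xist cells 10 of 23 were higher, with a median of -0.22, and in Y cells the median was 0.15. The 12 tested mitochondrially encoded genes had a median of 0.24, with 10 higher and 2 lower. The 26 DNA methylation, Polycomb and chromatin genes split into 13 higher and 13 lower, with a median of -0.66 in Xist and 0.05 in Y cells. On the spike-in scale 0 of the 12 mitochondrially encoded genes, 3 of the 26 chromatin genes and 3 of the 25 transcription factors were higher in p27 high cells.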
